A study of Mus musculus with 15 samples.

Results

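Oncofetal genes are genes that the embryo or fetus uses in many tissues, that fall silent in most adult tissue, and that some tumors express again. Of the 55359 genes listed in the deposited matrix, 10 were taken by name: Igf2, H19, Igf2bp1, Igf2bp2, Igf2bp3, Lin28a, Lin28b, Hmga1, Hmga2 and Igf2r. Each of the 10 had 1 row. Reads were counted for 9 of them, and Igf2 was listed at 0 in every sample.

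RNA was sequenced from 15 mouse samples in 5 groups of 3. 46LCNEC_cell is an adherent line from a large cell neuroendocrine carcinoma (LCNEC) of the lung, which arose after Cre delivery with adenovirus Ad-CMVcre, and 57SCLC_cell is a line that grows as floating aggregates, from a small cell lung carcinoma (SCLC) that arose after Ad-K5cre, in which the keratin 5 promoter drives Cre. Both lines come from QKO mice, whose deleted genes include Rb1, Rbl1 and Trp53, and the allografts (46LCNEC_allo and 57SCLC_allo) are tumors that formed after the cells were injected under the skin of syngeneic QKO mice. Lung is normal lung tissue from littermates of the recipient mice. Each tumor type is thus represented by 1 line, sampled from separate dishes or flasks (A, B and C), so line and tumor type cannot be told apart, and the ages of the mice are not given in the sources used here.

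Between 9480244 reads (tumor 275 of 57SCLC_allo) and 44876572 reads (flask C of 57SCLC_cell) were counted per sample, with a median of 26502525. A gene at or under 3 reads was taken as not detected, a limit that covers counting error only. Flask C stood apart from its group: 4.0% of the genes compared differed more than 2-fold between flasks A and C and 0 between A and B, while the 46LCNEC_allo tumors differed from each other at 10.1% to 14.7% of genes. Of 5 neuroendocrine markers, 57SCLC_cell had all 5 above 3 reads in every flask. 46LCNEC_cell had Ncam1 at 28614 to 31510 normalized counts, but Chga, Insm1 and Calca at no more than 10.3, and Insm1 and Calca were higher in Lung (14.2 to 28.9). The alveolar markers summed to 216600 to 290173 in Lung and to no more than 2516 in any other sample.

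The roles of the 10 genes given here are background, and links between the genes were not tested. Igf2 is a fetal growth factor made from the paternal allele, H19 is the long noncoding RNA made from the maternal allele next to it, and Igf2r is the receptor that takes Igf2 up and sends it to the lysosome. Lin28a and Lin28b are RNA-binding proteins of stem cells and embryos that block the maturation of let-7 miRNAs. The let-7 family in turn represses mRNAs that include Hmga2, Igf2bp1 and both Lin28 genes. Igf2bp1, Igf2bp2 and Igf2bp3 bind and stabilize or localize mRNAs, the Igf2 mRNA among them, and Hmga1 and Hmga2 are small chromatin proteins that bind AT-rich DNA through AT-hooks and are abundant in embryonic tissue.

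The let-7 sequences are shown because they connect Lin28 with its targets. The RefSeq miRNA table (build GRCm38.p6) held 11 mature sequences of the family, and 10 of them share the seed GAGGUAG at bases 2 to 8, while let-7j differs in its last seed base. Capitals mark the seed:
mmu-let-7a-5p: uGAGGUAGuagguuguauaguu
mmu-let-7g-5p: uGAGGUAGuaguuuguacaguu
mmu-miR-98-5p: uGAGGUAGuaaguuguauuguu
mmu-let-7j: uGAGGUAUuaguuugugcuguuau

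The seed pairs with CTACCTC, which was searched on the transcript strand of the longest annotated 3′ UTR of each gene (GENCODE vM39, GRCm39). Among 20758 protein-coding genes, 12% held at least 1 match. Igf2bp1, Lin28b and Hmga2 held 4 matches each, Lin28a held 2, and Igf2bp2, Igf2bp3, Hmga1 and Igf2r held 1 each, while Igf2 held 0 in 3050 bases. UTRs of like length (within 10%) held at least 4 matches in 0.185% of 1621 genes for Hmga2, 0.237% of 422 for Igf2bp1 and 0.284% of 1057 for Lin28b. The gene itself is included in each of these shares and in those that follow. For the genes with 1 match, between 8.21% (Hmga1) and 14.4% (Igf2bp3) of UTRs of like length held at least 1, so a single match is common. The 4 matches of Hmga2 and the 2 of Lin28a are printed with the bases around them, since these members had the largest fitted difference between the lines in either direction as cells. Capitals mark the match:
Hmga2 site 1, chr10:120200129-120200151, minus strand: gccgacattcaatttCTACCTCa
Hmga2 site 2, chr10:120198892-120198914, minus strand: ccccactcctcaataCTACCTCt
Hmga2 site 3, chr10:120198454-120198476, minus strand: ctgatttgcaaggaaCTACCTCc
Hmga2 site 4, chr10:120197596-120197618, minus strand: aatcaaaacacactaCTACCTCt
Lin28a site 1, chr4:133732500-133732522, minus strand: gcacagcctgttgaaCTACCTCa
Lin28a site 2, chr4:133731862-133731884, minus strand: gagatcgccacaaacCTACCTCa

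Igf2bp1, whose 3′ UTR of 6337 bases is the longest of the set, has 3 matches followed by an A, the base that often strengthens such a site:
Igf2bp1 site 1, chr11:95852604-95852626, minus strand: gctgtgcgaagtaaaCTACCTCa
Igf2bp1 site 2, chr11:95850183-95850205, minus strand: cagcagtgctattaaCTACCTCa
Igf2bp1 site 3, chr11:95849589-95849611, minus strand: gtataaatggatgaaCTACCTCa

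A match is a description of the sequence, not a site in use. Mature miRNAs were not measured here, since the RNA was poly-A selected and counted per gene.

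**Figure D1:**
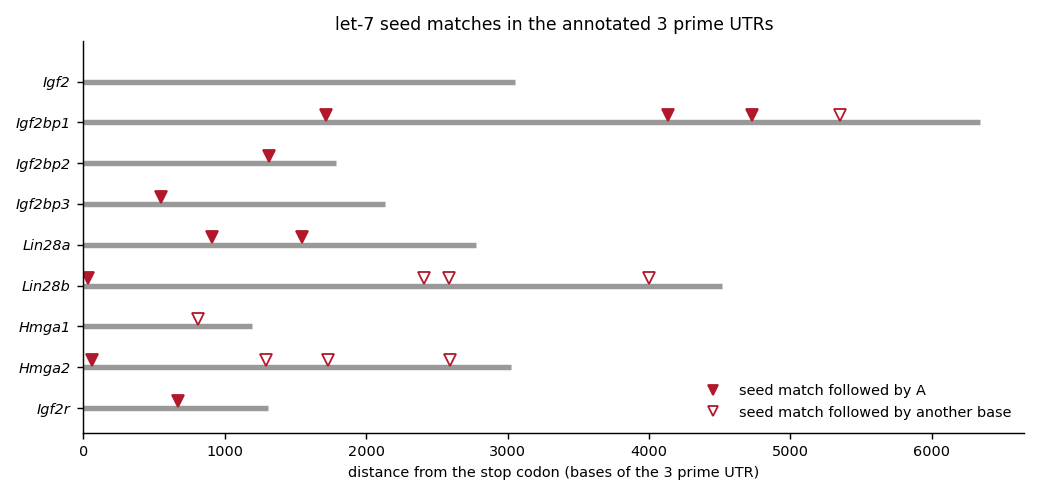
Positions of the let-7 seed match CTACCTC along the longest annotated 3′ UTR of each protein-coding member, in bases from the stop codon, with filled triangles where an A follows the match. Igf2bp1, Lin28b and Hmga2 carry 4 matches each and Igf2 carries 0.

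The levels below are normalized counts, that is, reads divided by the size factor of the sample. Differences are log2 fold changes on log2(normalized count + 1), tested with limma over all genes, and a gene was called where the adjusted p did not exceed 0.01 and the difference was 1 or more in either direction. Levels of different genes are compared per kilobase of exon. A gene was tested where 3 or more of the samples compared reached 10 normalized counts (the filter on low values). Where 1 group had no such sample, the gene passed through the other group alone and had to differ. Its adjusted p is then a description and no separate support for a difference.

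The clearest pattern was a split between the lines. 46LCNEC expressed Hmga2, Igf2bp1, Igf2bp2 and H19, which 57SCLC cells lacked or had at a small fraction of that level. 57SCLC expressed Lin28a and, at a low level, Lin28b, which were at or near 0 reads in 46LCNEC. Hmga1, Igf2bp3 and Igf2r were present in both lines.

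**Figure D2:**
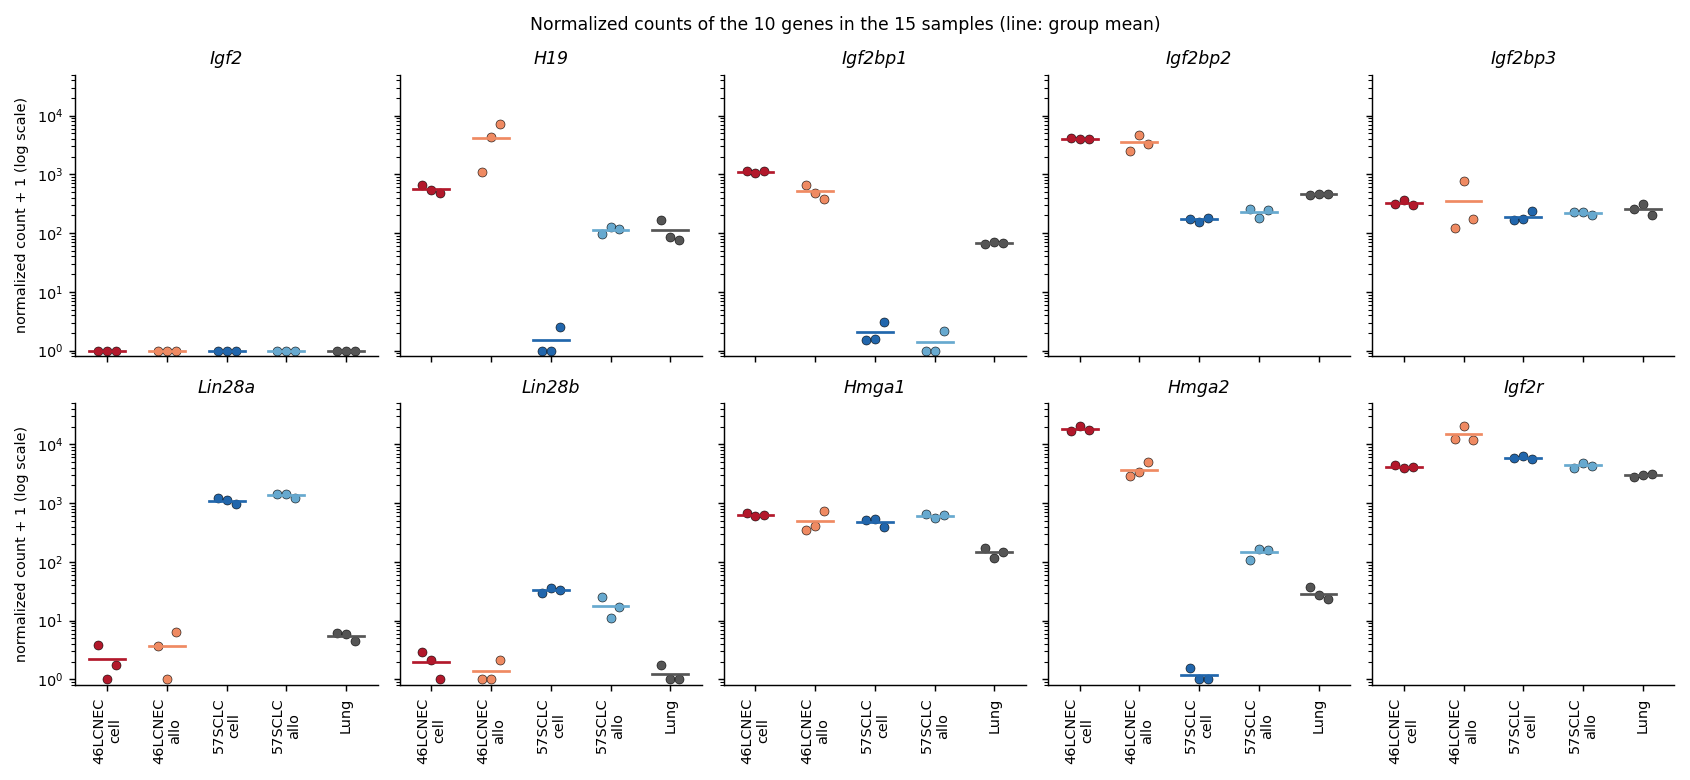
Normalized counts plus 1 on a log scale for the 10 genes in each of the 15 samples (points) with the group mean (line). Hmga2 and Igf2bp1 are high in both 46LCNEC groups and near the bottom of the axis in 57SCLC_cell, Lin28a shows the opposite order, and Igf2 lies at 0 throughout.

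Igf2 (ENSMUSG00000048583, chr7:142204503-142220694, minus strand) was listed at 0 reads in all 15 samples. In the GENCODE vM39 annotation, the transcript with the longest 3′ UTR has all of its 540 coding bases and all 3050 bases of its 3′ UTR inside exons of Gm49394, a gene annotated on the same strand, and how the counting treated reads that fall in exons of 2 genes is not given in the sources used here. Gm49394 itself had 3 to 10 reads in the 57SCLC flasks, 1 to 3 in the 57SCLC tumors and 0 in the other samples. The value of Igf2 was therefore not read as absence of its mRNA, and no difference was computed for it.

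H19 (ENSMUSG00000000031, chr7:142129262-142133957, minus strand) is the noncoding neighbor of Igf2 and the host of miR-675. It measured 671, 541 and 487 normalized counts in dishes A, B and C of 46LCNEC_cell, and 1091, 4244 and 7270.3 in tumors 312, 319 and 321 of 46LCNEC_allo. In 57SCLC_cell it had 0 reads in flasks A and B and 3 reads in flask C, which is not detected, whereas the 57SCLC_allo tumors 275, 316 and 317 had 95.8, 126 and 115 and the Lung samples CT3, CT4 and CT5 had 169, 85.8 and 74.9. The lines did not overlap, either as cells or as allografts, and the 57SCLC allografts lay within the range of Lung.

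The mean of H19 in 46LCNEC_cell was 1086 times that in 57SCLC_cell (95% counting interval 372 to 5268, adjusted p = 3.22e-07). H19 passed the filter there through 46LCNEC_cell alone and had to differ. Between allografts the difference narrowed to 37.5-fold (log2 fold change for 57SCLC minus 46LCNEC -4.84, SE 0.64, adjusted p = 0.000852). Against Lung, H19 was 5.15-fold higher in 46LCNEC_cell (adjusted p = 3.57e-05) and 38.2-fold higher in 46LCNEC_allo (adjusted p = 0.00108). Within 46LCNEC, all tumors were above all dishes, but the tumors spread over more than 6-fold and the test was missed at a log2 fold change of 2.52 (SE 0.62, adjusted p = 0.0119). Without tumor 312 the value was 3.31 and was called (adjusted p = 0.000285), as it was with edgeR (2.91, adjusted p = 0.00711). Without tumor 321 it was 1.94 and not called.

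Igf2r (ENSMUSG00000023830, chr17:12901293-12988614, minus strand), the scavenger receptor for Igf2, was abundant in every group. In culture it was higher in 57SCLC without overlap, but under the fold threshold (log2 fold change 0.51, SE 0.07, adjusted p = 0.000304). It measured 4409, 4007 and 4109 normalized counts in the dishes of 46LCNEC_cell, 5902, 6238 and 5700.3 in the flasks of 57SCLC_cell and 2752, 3012 and 3196 in Lung. The 46LCNEC_allo tumors 312, 319 and 321 stood above all other samples, at 12589, 20753 and 11771, while the 57SCLC_allo tumors were at 4043, 4782 and 4351. Igf2r was 3.60-fold higher in 46LCNEC_allo than in the cells of that line (log2 fold change 1.80, SE 0.21, adjusted p = 0.000489), and 5.03-fold higher than in Lung (adjusted p = 0.000208). In 57SCLC_allo it was 1.35-fold lower than in the cells, a difference under the fold threshold (log2 fold change -0.44, adjusted p = 0.00528).

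The change of Igf2r from cells to allografts thus went opposite ways, and the test of the difference itself gave -2.24 on the log2 scale (SE 0.24, adjusted p = 2.87e-05). Between 57SCLC_cell and Lung it was just under the fold threshold, at 0.995 (log2 scale, adjusted p = 1.15e-05). With edgeR and DESeq2 on the recovered reads and with 2 other scalings the value was 1.02 to 1.2 and the gene was called, as it was without flask A or C or without CT4 or CT5 (1.00 to 1.05). Airn, the antisense RNA that silences the paternal Igf2r allele, was present in every sample, at 1101 to 1270.3 in 46LCNEC_cell, 3339 to 5710 in 46LCNEC_allo, 3259 to 4656 in 57SCLC_cell, 3095 to 3305 in 57SCLC_allo and 1960 to 2260 in Lung. The annotation shows no exon bases shared by the pair, and Airn was added after its values were seen.

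Lin28a (ENSMUSG00000050966, chr4:133730641-133746173, minus strand), the RNA-binding protein that recruits terminal uridylation to let-7 precursors, was the member that marked 57SCLC. Flasks A, B and C of 57SCLC_cell held 1225, 1153 and 949.9 normalized counts, and tumors 275, 316 and 317 of 57SCLC_allo held 1429, 1459 and 1201. In 46LCNEC_cell it had 3, 0 and 1 reads, in 46LCNEC_allo 2, 0 and 5, and in Lung 7, 5 and 3. The 57SCLC groups did not overlap with any other group, and overlapped with each other. The mean was 929 times that of 46LCNEC_cell in the cells (95% counting interval 363 to 3409, adjusted p = 5.14e-07), and 500-fold that of 46LCNEC_allo in the allografts (adjusted p = 7.44e-05). Against Lung it was 242-fold higher in 57SCLC_cell (adjusted p = 3.82e-08) and 298-fold higher in 57SCLC_allo (adjusted p = 9.18e-08). In each of these comparisons Lin28a passed the filter through the 57SCLC group alone and had to differ. The difference between 57SCLC allografts and cells was under the threshold, at a log2 fold change of 0.30 (SE 0.12, adjusted p = 0.0877).

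Lin28b (ENSMUSG00000063804, chr10:45252646-45362557, minus strand), the paralog of Lin28a, followed the same order at a far lower level. It measured 28.4, 35 and 31.8 normalized counts in the 57SCLC flasks and 23.9, 9.91 and 15.9 in the 57SCLC tumors, from 7 to 14 reads per tumor. No other sample had more than 2 reads. In the cells it was 31.9-fold above 46LCNEC_cell (95% counting interval 10.9 to 155, adjusted p = 2.62e-05). Lin28b passed the filter there through 57SCLC_cell alone and had to differ. In the 57SCLC tumors all values lay below the flasks, with a log2 fold change of -0.97 (SE 0.35) that missed the test (adjusted p = 0.0549). Per kilobase of exon, the 57SCLC cells held 276 ± 35.5 normalized counts of Lin28a and 3.29 ± 0.34 of Lin28b (SD, n = 3).

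The Igf2bp genes encode a family of KH-domain proteins that bind mRNAs in the cytoplasm, and its members behaved unlike each other. Igf2bp1 (ENSMUSG00000013415, chr11:95847989-95896911, minus strand) held 1149, 1034 and 1128 normalized counts in the 46LCNEC dishes, 665, 489 and 385 in the 46LCNEC tumors and 63.5, 69.8 and 67.9 in Lung. The 57SCLC flasks had 1, 1 and 4 reads and the 57SCLC tumors 0, 0 and 1. Igf2bp1 was thus lower in 57SCLC than in Lung, and higher in 46LCNEC than in Lung, with no overlap. It was 1024-fold lower in 57SCLC_cell than in 46LCNEC_cell (adjusted p = 5.38e-08), a ratio that rests on 6 reads in the flasks. The mean in 46LCNEC_allo was 1356 times that in 57SCLC_allo (95% counting interval 243 to 53578, adjusted p = 1.89e-05). In both comparisons Igf2bp1 passed the filter through the 46LCNEC group alone and had to differ.

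Against Lung, Igf2bp1 was 16.5-fold higher in 46LCNEC_cell (adjusted p = 4.10e-09) and 7.65-fold higher in 46LCNEC_allo (adjusted p = 0.000108). It was 62.2-fold lower in 57SCLC_cell (adjusted p = 2.29e-06), a ratio that rests on the same 6 reads in the flasks. Igf2bp1 passed the filter there through Lung alone and had to differ. The 46LCNEC tumors all lay below the dishes, by a log2 fold change of -1.14 (SE 0.20, adjusted p = 0.00279), a call that was lost without any 1 of the 3 dishes (adjusted p 0.0129 to 0.0166), without tumor 321 (log2 fold change -0.95) and when the 15 samples were fitted together (adjusted p = 0.0145).

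Igf2bp2 (ENSMUSG00000033581, chr16:21877759-21982499, minus strand), the member of the family that adult tissues keep, was also higher in 46LCNEC but was detected in every sample. The 46LCNEC dishes held 4102, 4075 and 3925 normalized counts and the tumors 2514, 4759.6 and 3303. The 57SCLC flasks held 175, 156 and 178, the tumors 261, 181 and 243, and Lung held 438, 465 and 467. It was 23.8-fold lower in 57SCLC_cell than in 46LCNEC_cell (log2 fold change -4.57, SE 0.08, adjusted p = 5.99e-09) and 15.4-fold lower in the allografts (adjusted p = 4.42e-05). In 57SCLC it was below Lung, by 2.69-fold in the cells (adjusted p = 1.02e-05) and by a log2 fold change of -1.01 in the allografts (SE 0.16, adjusted p = 0.000655), a value at the threshold. It fell under it with edgeR, DESeq2 and 2 other scalings (-0.96 to -0.81), without tumor 316 (-0.86) and without CT5 (-0.997).

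Igf2bp3 (ENSMUSG00000029814, chr6:49062144-49192447, minus strand) differed least. Its values were 316, 365 and 298 in the 46LCNEC dishes, 166, 169 and 232 in the 57SCLC flasks, 229.8, 229.3 and 199.7 in the 57SCLC tumors and 255, 313 and 206 in Lung. Among the 46LCNEC tumors, 319 held 758 and tumors 312 and 321 held 119 and 176, so that the highest and the lowest value of all 15 samples came from 1 group. It was called in none of the 8 comparisons of 2 groups with limma. The lines in culture differed without overlap by -0.80 on the log2 scale (SE 0.17, adjusted p = 0.00271), under the fold threshold. Its direction in the comparisons with the 46LCNEC tumors turned with the tool, the scaling or the sample left out. Without tumor 319, Igf2bp3 was lower in 46LCNEC_allo than in the cells (log2 fold change -1.16, adjusted p = 0.00469). Of its exon bases, 19.3% overlap Malsu1 on the other strand, and the strand setting of the counting is not given in the sources used here.

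Hmga2 (ENSMUSG00000056758, chr10:120197173-120313095, minus strand), the let-7 target and chromatin protein of embryonic mesenchyme, spanned the widest range of the set. The 46LCNEC dishes held 16736, 20683 and 17484 normalized counts. The 46LCNEC tumors held 2861, 3373 and 4928, the 57SCLC tumors 105, 167 and 161, and Lung 35.9, 25.9 and 22.2. In 57SCLC_cell, 1 read was counted in flask A and 0 in flasks B and C. No neighboring groups in that order overlapped. Per kilobase of exon, Hmga2 ranked 399 of 24201 genes with reads in 46LCNEC_cell.

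In the cells, Hmga2 in 46LCNEC was 100648 times its mean in 57SCLC, a ratio that rests on that 1 read (95% counting interval 18064 to 3975372, adjusted p = 3.45e-09). In the allografts it was 25.7-fold lower in 57SCLC (log2 fold change -4.67, SE 0.26, adjusted p = 2.51e-05). Against Lung, Hmga2 was 653-fold higher in 46LCNEC_cell (adjusted p = 3.80e-10), 133-fold higher in 46LCNEC_allo (adjusted p = 8.09e-06) and 5.16-fold higher in 57SCLC_allo (adjusted p = 0.000181). It was lower than Lung in 57SCLC_cell (ratio of means 154, 95% counting interval 27.7 to 6086, adjusted p = 2.76e-06). In the comparisons of 57SCLC_cell with 46LCNEC_cell and with Lung, Hmga2 passed the filter through the other group alone and had to differ.

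Hmga1 (ENSMUSG00000046711, chr17:27775449-27782648, plus strand), the paralog that many proliferating cells express, was at a like level in all 4 tumor groups. It held 683, 606 and 628 normalized counts in the 46LCNEC dishes, 348, 409 and 741 in the 46LCNEC tumors, 524, 528 and 390.3 in the 57SCLC flasks, 651, 562 and 616 in the 57SCLC tumors, and 169.7, 118 and 146 in Lung. All 12 tumor and cell samples were above Lung, by 4.42-fold in 46LCNEC_cell (adjusted p = 1.01e-06), 3.46-fold in 46LCNEC_allo (adjusted p = 0.00343), 3.33-fold in 57SCLC_cell (adjusted p = 6.35e-05) and 4.22-fold in 57SCLC_allo (adjusted p = 1.19e-05). The call in 46LCNEC_allo was lost without any 1 of the 3 Lung samples, at adjusted p of 0.0112 to 0.0172. The lines were not called apart in either setting, with log2 fold changes of -0.42 in the cells (adjusted p = 0.0213) and 0.36 in the allografts (adjusted p = 0.309).

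The level of Hmga1 is uncertain because its processed copy Hmga1b (chr11:120653620-120655245) shares sequence with it: 84.0% of the distinct 75-base windows of Hmga1b transcripts are also found in Hmga1 transcripts. In the other direction, 21.2% of the windows of Hmga1 transcripts are found in Hmga1b transcripts. Most of the reads were listed under Hmga1b, at 4617 to 5791 normalized counts in 46LCNEC_cell, 2958 to 7587 in 46LCNEC_allo, 1977 to 2831 in 57SCLC_cell, 2806 to 3475 in 57SCLC_allo and 504 to 617 in Lung. Hmga1 took 9.78% to 20.4% of the sum as group means. The sum, which was formed after the values were seen, was higher than in Lung in all 12 other samples, by 2.07 to 3.03 in mean log2 difference, and was 5223 to 6474 in the 46LCNEC dishes against 2368 to 3355 in the 57SCLC flasks. The handling of reads with several alignments is not given in the sources used here.

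**Figure D3:**
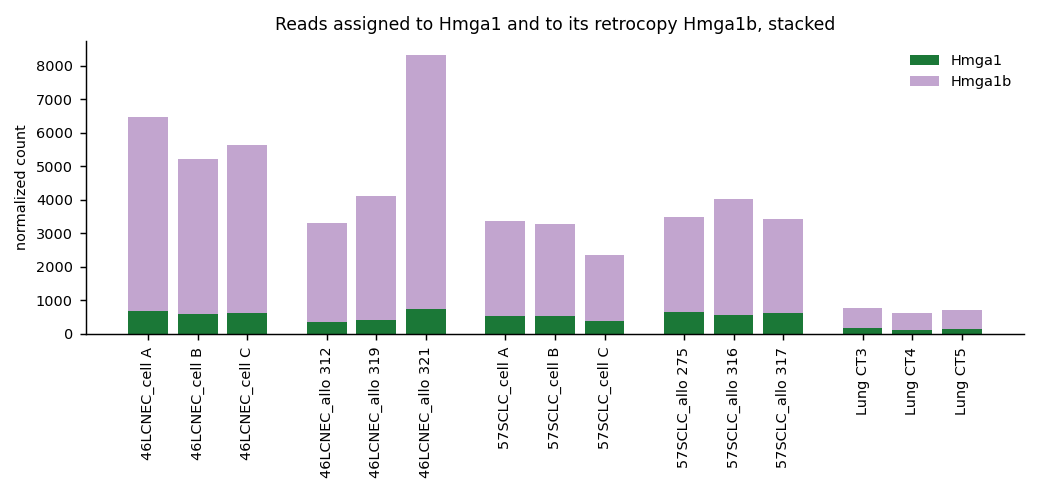
Normalized counts listed under Hmga1 and under its processed copy Hmga1b, stacked for each of the 15 samples. Hmga1 takes the smaller share in every bar, and the Lung bars, at 621 to 787 in sum, are the lowest.

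Counted over the set, 9 of the 10 genes passed the filter on low values in the comparison of the lines as cells. Of these, 2 were higher in 57SCLC (Lin28a and Lin28b) and 4 lower (H19, Igf2bp1, Igf2bp2 and Hmga2), beside 23.9% of all genes tested that were higher and 22.2% that were lower. Of the 6, 5 passed the filter through 1 line alone and had to differ, so this count is a description. In the allografts 8 passed, with 1 higher in 57SCLC (Lin28a) and 5 lower (the same 4 and Igf2r), beside 16.1% and 14.2% of all genes. Lin28a and Igf2bp1 passed the filter there through 1 line alone. Lin28b was not tested there, because only 2 tumors reached 10 normalized counts.

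Against Lung, 46LCNEC_cell had 5 of 7 genes higher and 0 lower (beside 20.6% and 35% of all genes tested), and 46LCNEC_allo had 6 of 7 higher and 0 lower (13.4% and 22.1%). For these counts of 0, limma at an unadjusted p under 0.05, edgeR and DESeq2 also gave 0. In both, Igf2bp3 was not called, and Lin28a, Lin28b and Igf2 could not be tested. 57SCLC_cell had 3 of 9 higher (Lin28a, Lin28b and Hmga1) and 4 lower (H19, Igf2bp1, Igf2bp2 and Hmga2), beside 21.1% and 32.7% of all genes. Of these 7, 5 (H19, Igf2bp1, Lin28a, Lin28b and Hmga2) passed through 1 group alone and had to differ. 57SCLC_allo had 3 of 8 higher (Lin28a, Hmga1 and Hmga2) and 2 lower (Igf2bp1 and Igf2bp2), beside 18.9% and 26.9%, where Lin28a and Igf2bp1 passed through 1 group alone. These 4 comparisons share the 3 Lung samples, so a low or high value in Lung enters all of them.

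**Figure D4:**
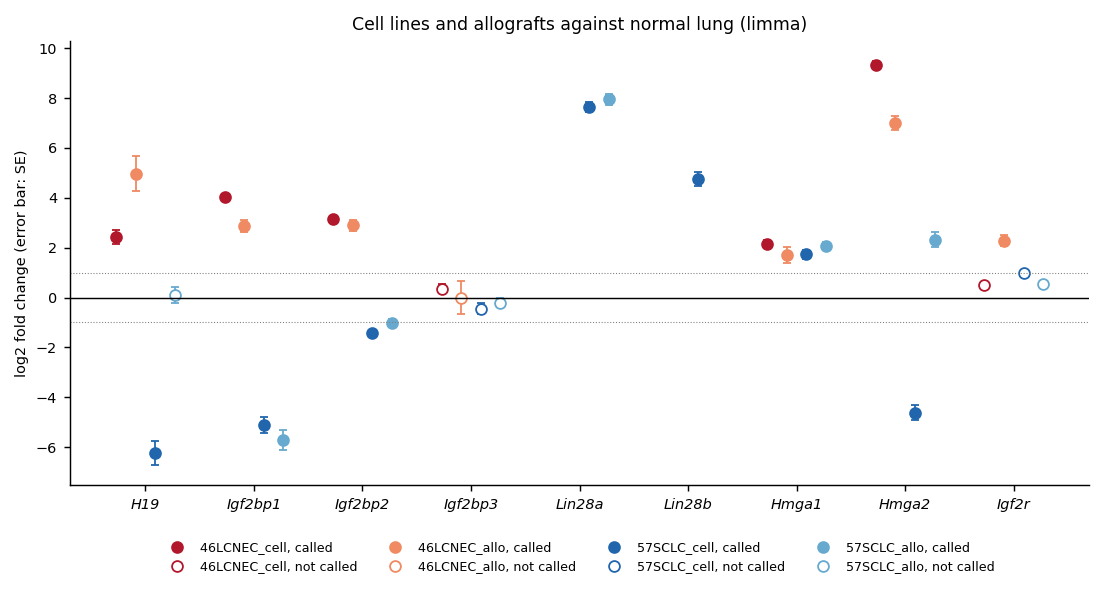
Log2 fold changes against Lung (limma, error bars SE) for the 9 genes with reads in the 2 cell lines and the 2 allograft groups, filled where called. The dotted lines mark a log2 fold change of 1 in either direction, and a missing point was not tested.

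From cells to allografts, H19 and Hmga2 appeared in 57SCLC while Hmga2 dropped in 46LCNEC. In 57SCLC, 2 of 8 genes were higher in the allografts and 0 lower (beside 14.4% and 2.29% of all genes tested), while 2 were lower by limma at an unadjusted p under 0.05 and edgeR and DESeq2 also called 0. Both higher genes, H19 and Hmga2, passed the filter through the allografts alone, so their count was set by the filter. H19 went from 3 reads in 3 flasks to 95.8 to 126 normalized counts (ratio of means 215, 95% counting interval 73.6 to 1043, adjusted p = 9.97e-06), and Hmga2 from 1 read to 105 to 167 (ratio 795, interval 143 to 31389, adjusted p = 1.92e-06). In 46LCNEC, 1 of 7 genes was higher (Igf2r) and 2 lower (Igf2bp1 and Hmga2), beside 14.4% and 8.45%. Without dish C, the number of all genes called there was 2428 instead of 3738. Hmga2 there was 4.92-fold lower in the tumors, with no overlap (log2 fold change -2.33, SE 0.20, adjusted p = 0.000140).

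The cells and the allografts also differed in markers of other cell types. In 57SCLC, the 7 fibroblast markers summed to 25 to 32.2 in the flasks, where Col3a1, Dcn and Lum were at or under 3 reads, and to 40542 to 62734 in the tumors, with all 7 above 3 reads. The 6 leukocyte markers went from 291 to 321 in the flasks, with Ptprc and Cd3e at or under 3 reads, to 15021 to 25831, and the 5 endothelial markers from 63.3 to 88.6, with Cdh5, Kdr and Emcn at or under 3 reads, to 2534 to 3569. In 46LCNEC, the fibroblast markers were already at 82234 to 92731 in the dishes, with Lum alone at or under 3 reads, and at 432572 to 854682 in the tumors. Lung had 27160 to 32386. Since the dishes held these markers, their sum in the 46LCNEC tumors cannot be read as other cells alone. The leukocyte markers of this line went from 329 to 386 (C1qa, Cd3e and Lyz2 at or under 3 reads) to 32437 to 76232. The 5 endothelial markers there went from 371 to 454, with Cdh5 and Emcn at or under 3 reads, to 5070 to 8793. The part of these cells in the changes of H19, Hmga2, Igf2r and Igf2bp1 was not tested, and in bulk RNA fewer cells of a type and less RNA per cell cannot be told apart.

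Among the 46LCNEC tumors, H19, Hmga1 and Hmga2 were lowest in tumor 312 and highest in tumor 321. Igf2bp1 had the reverse order, at 665, 489 and 385 in tumors 312, 319 and 321. Igf2bp2, Igf2bp3 and Igf2r were highest in tumor 319. A link of these orders with the marker sums that follow was not tested. Tumor 312 had the highest fibroblast sum (854682) and the highest sum of 4 adipocyte markers (2485, against 366 and 444 in tumors 319 and 321). Tumor 321 had the lowest fibroblast sum (432572) and the highest leukocyte sum (76232, against 45532 and 32437 in tumors 312 and 319). Ncam1, a marker of neuroendocrine cells, went from 28614 to 31510 in the dishes to 3058 to 7384 in the tumors, while Chga, Syp, Insm1 and Calca were at no more than 18.5 in either.

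**Figure D5:**
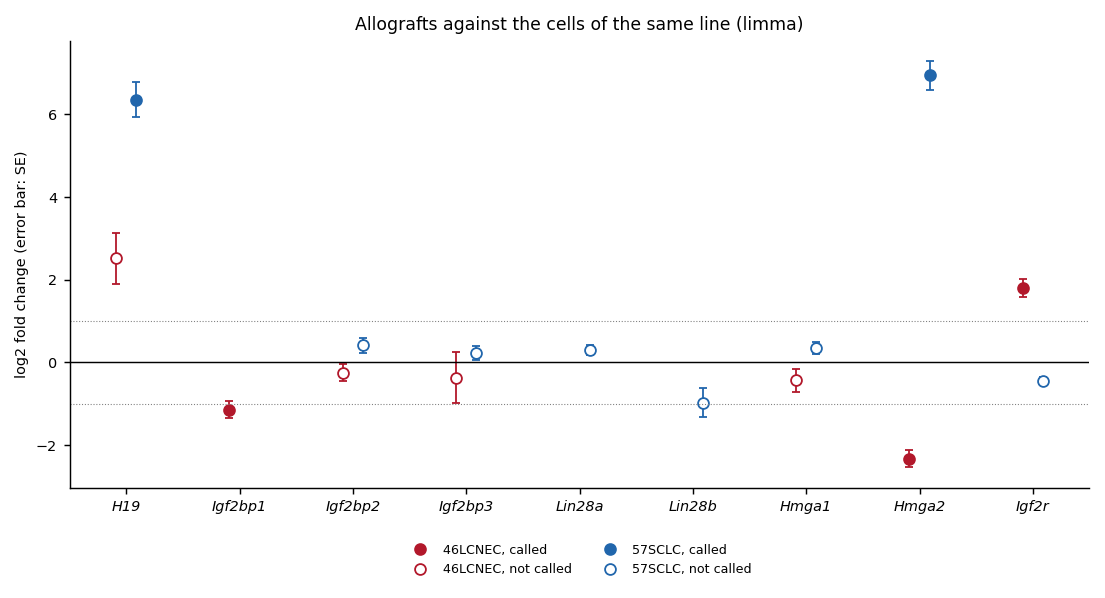
Log2 fold changes of allografts against the cells of the same line (limma, error bars SE), filled where called. H19 and Hmga2 stand at 6.36 and 6.95 in 57SCLC, where Hmga2 stands at -2.33 in 46LCNEC, and Igf2r is called in 46LCNEC alone.

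Whether the difference between the lines itself changed from culture to tumor was tested over the 12 samples of both lines. Of 9 genes, 2 had a called positive term and 1 a negative one, beside 10.8% and 6.78% of all genes tested. The term was 9.28 for Hmga2 (SE 0.35, adjusted p = 7.59e-09), 3.84 for H19 (SE 0.81, adjusted p = 0.00321) and the negative value given above for Igf2r. The H19 term missed the threshold with edgeR (term 4.53, adjusted p = 0.0202), with a pseudocount of 5 (term 1.90, adjusted p = 0.0542) and without dish A (term 3.71, adjusted p = 0.0101). Igf2bp1, Igf2bp2, Igf2bp3, Lin28a, Lin28b and Hmga1 had no called term, with values from -0.46 to 0.79. Without tumor 319 the term of Igf2bp3 was called at 1.39 (adjusted p = 0.00288), and without tumor 321 that of Hmga1 at 1.11 (adjusted p = 0.00157).

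Most other genes of the IGF pathway were lower in 57SCLC cells than in 46LCNEC cells. Of 13 genes of the axis, 11 were tested between the lines as cells, where 1 was higher in 57SCLC and 8 lower, beside 23.9% and 22.2% of all genes. Of the 8, 3 (Igf1, Igfbp4 and Igfbp6) passed the filter through 46LCNEC alone. The median log2 fold change was -4.64 (that of Igfbp3) beside 0.000278 for all genes tested. Igf1, the adult counterpart of Igf2, held 886 to 1029 normalized counts in the 46LCNEC dishes and 5.45 to 8.86 in the 57SCLC flasks (log2 fold change -6.79, adjusted p = 4.46e-08). Among the binding proteins that hold IGFs in the extracellular space, Igfbp7 was at 10333 to 12183 against 63.9 to 105 and Igfbp4 at 588 to 809 against 0 to 1.56.

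Igfbp5 had the opposite order and was the gene of the axis that was higher in 57SCLC cells, at 140787 to 153560 against 3157 to 4760 in 46LCNEC. It was the lower one in the tumors of that line, at 30016 to 34266 against 106127 to 182373. From cells to allografts, 4 of 11 genes rose in 46LCNEC (Igfbp3, Igfbp4, Igfbp5 and Igfbp6) and limma called 0 lower (beside 14.4% and 8.45% of all genes), while 3 were lower at an unadjusted p under 0.05 and edgeR and DESeq2 called 0. In 57SCLC, 7 of 11 rose and Igfbp5 fell (beside 14.4% and 2.29%), and 3 of the 7 (Igf1, Igfbp4 and Igfbp6) passed through the allografts alone. Igfbp3 rose in both, from 503 to 657 to 22299 to 38330.1 in 46LCNEC and from 16.9 to 28.1 to 6999 to 9671 in 57SCLC. The fibroblast markers given above rose with them, and their part was not tested. Igf1r, the receptor that signals for Igf2, was at 1601 to 2437 in the 57SCLC flasks and at 4582 to 6794 in 46LCNEC_cell, 57SCLC_allo and Lung, with 2949 to 4156 in 46LCNEC_allo. It was named after its values were seen.

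Most of the enzymes that make and act on let-7 differed less than 2-fold between the lines. Of 10 genes, all tested, 1 was higher in 57SCLC cells and 0 lower (beside 23.9% and 22.2% of all genes), and the median log2 fold change was 0.14. At an unadjusted p under 0.05 by limma, 3 were higher and 4 lower in these cells. In the allografts 0 were called, and 0 from cells to allografts in either line. Where limma called 0, an unadjusted p under 0.05 was met by 0 to 4 of the 10 in a direction, and edgeR and DESeq2 also called 0. The gene called was Dicer1, which cuts the precursor to the mature miRNA, at 5547 to 6068 in 57SCLC against 2462 to 2497 in 46LCNEC (log2 fold change 1.2, adjusted p = 8.87e-07). Against Lung, 4 of 10 were higher in 46LCNEC_cell (Drosha, Dgcr8, Xpo5 and Tarbp2) and 6 of 10 in 57SCLC_cell, with 0 lower. Of all genes, 20.6% were higher and 35% lower in the first comparison and 21.1% and 32.7% in the second. Dgcr8, the partner of Drosha in the nucleus, was at 1685 to 2210 in the cells of both lines and at 447 to 589 in Lung.

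Among other known targets of let-7, genes were called in either direction between the lines. Of 11, 7 were tested between the lines as cells, with a median log2 fold change of 0.69. Of these, 1 was higher in 57SCLC (through 57SCLC alone in the filter) and 1 lower, beside 23.9% and 22.2% of all genes. At an unadjusted p under 0.05 by limma, 5 were higher and 2 lower. Arid3b, a DNA-binding protein, was at 14.2 to 19.3 in the 57SCLC flasks against 0.938 to 5.52 in 46LCNEC (adjusted p = 0.00198), and Fignl2 was at 54.5 to 75.4 against 310 to 503 (adjusted p = 1.08e-05). Cdc25a, the cell cycle phosphatase, was higher than Lung in all 4 tumor groups, at 1181 to 3982 against 462 to 585. Mycn was at 0 in the 46LCNEC dishes and at 4.91 to 7.82 in the 57SCLC flasks, below the 163 to 293 of Lung.

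Other oncofetal genes were found in either line. Of 6, 5 were tested between the lines as cells, with 3 higher in 57SCLC (Sall4, Cldn6 and Gpc3) and 1 lower (Tpbg), beside 23.9% and 22.2% of all genes. The 3 higher genes passed the filter through 57SCLC alone and had to differ. Sall4, the zinc finger factor of embryonic stem cells, was at 511 to 707 in the 57SCLC flasks and at 691 to 736 in the tumors, and at no more than 3.08 in any other sample. Cldn6, a tight junction protein of the embryo, was at 5555 to 6016 and at 4466 to 6621, and at no more than 11 elsewhere. Gpc3 was at 771 to 2133 in the 57SCLC flasks and at 2.21 to 3.75 in the 46LCNEC dishes, but Lung had more, at 3133 to 4237. Tpbg, the 5T4 antigen of the trophoblast, was on the side of 46LCNEC, at 2833 to 3285 in the dishes against 598 to 702.

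Other imprinted genes divided in either direction between the lines as cells. Of 14, 10 were tested there, with a median log2 fold change of -0.93. Of all genes tested, 23.9% were higher in 57SCLC and 22.2% lower. In this list, 4 were higher in 57SCLC (Peg3, Cdkn1c, Zim1 and Mest) and 5 lower (Dlk1, Peg10, Slc38a4, Plagl1 and Grb10). Of these 9, 4 (Zim1, Dlk1, Plagl1 and Slc38a4) passed the filter through 1 line alone. Of these, Cdkn1c, Zim1, Mest, Slc38a4, Plagl1 and Grb10 were named here after their values were seen. In the allografts, 1 of 10 was higher in 57SCLC and 1 lower, beside 16.1% and 14.2% of all genes, and the median was 0.13. Peg3 was at 16114 to 17650 in the 57SCLC flasks against 127 to 193 in the 46LCNEC dishes (adjusted p = 1.22e-08). Peg10, a placental gene derived from a retrotransposon, was at 16100 to 19856 in the 46LCNEC dishes against 103 to 129 (adjusted p = 3.88e-09), and Dlk1 was at 405 to 457 against 0 to 0.603. Meg3, the noncoding RNA of the Dlk1 locus, was listed at 0 in all flasks and dishes of both lines, and at 127 to 1008 in the 46LCNEC tumors, 2248 to 3779 in the 57SCLC tumors and 1032 to 1318 in Lung. Beside Igf2, Igf2os, which is antisense to it and shares 254 of its exon bases, was at 42.7 to 69.8 in the 57SCLC flasks and at 18.2 to 32.6 in the tumors, and no other sample had more than 2 reads.

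For each gene with enough reads, the 2 genes with the most similar values over the 15 samples were taken among 16362 genes. Since the samples fall into 5 groups of 3, these correlations mostly describe group means. They were Phf21b (r = 0.994) and Cldn6 (0.992) for Lin28a, Gm49990 (0.994) and Ereg (0.988) for Hmga2, Med13l (0.994) and Fat4 (0.993) for Igf2bp1, and Bend6 (0.993) and Cnn3 (0.992) for Igf2bp2. H19 was most like Bnc2 (0.984) and Fstl1 (0.982), and Igf2r most like Rell1 (0.975) and Pde7a (0.959). Hmga1 was nearest to Fam72a (0.958) and Cand2 (0.948). Igf2bp3, with its single high tumor, reached no more than 0.896 with Hipk2 and 0.838 with Sspo.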

How the data were processed

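Poly-A selected RNA of 15 samples, 3 in each of the 5 groups, was sequenced from both ends. Per the labels and the study's methods, the authors used Rbowtie2 to align the reads (GRCm39) and featureCounts with GENCODE vM27 to count them per gene. The deposited signal values are these counts divided by DESeq2 size factors. Strand setting and handling of reads with several alignments are not given in the sources used here.

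Every non-zero value was a whole multiple of 1 step per sample (tolerance 0.02 reads), which gave the reads back. Groups were compared with limma 3.58.1 (R 4.3.3), fitting log2 values with a pseudocount of 1 and a trend of variance on mean, over the 6 samples of each comparison. A gene was tested if 3 or more of the 6 samples reached 10 normalized counts, and p-values were adjusted over all genes tested (Benjamini-Hochberg). An interaction term over 12 samples compared the line difference between allografts and cells. Alternatives were edgeR 4.0.16 and DESeq2 1.42.0 on the recovered reads, pseudocounts of 0.1 and 5, no filter, scaling by library size or TMM, all 15 samples in 1 fit, an adjusted p of at most 0.05, a replicate block and each sample left out in turn. On simulated data with 200 genes changed by a log2 fold of 2, limma recovered 100% with 0 other calls among 16689 genes for the cells and 100% with 3 among 18004 for the interaction. The simulated spread was the same for every gene and group, and changes were planted only at means of 50 or more. Recovery and false calls at the wider spread of the tumors, or for genes with few reads, were thus not tested.

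Replicates are separate flasks, dishes, tumors or mice. p-values for the cell lines measure the spread between flasks or dishes of 1 line. Counting intervals are exact Poisson intervals at 95% over the summed reads of the lower group and cover counting error only.

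Coordinates, exons and UTRs came from GENCODE vM39 (GRCm39), which held 98.9% of the identifiers, and miRNA sequences from RefSeq (GRCm38.p6). Python 3.11.15 with pandas 2.3.3 and matplotlib 3.10.9 was used. The members, lists and tests were chosen with earlier results of these data known. Named genes are the 10 members, at most 3 called genes per list and comparison by size of change, and the 2 genes most like each member among genes that reached 50 normalized counts in 3 or more samples. Gm49394, Hmga1b and Airn were added after their values were seen.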

Additional observations from a re-analysis of the deposited data

Results flagged for a closer look

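In 3 genes the difference between 57SCLC and 46LCNEC in the allografts was not that in the cells, by an interaction term over 12 samples (limma). For Hmga2 the term was 9.28 on the log2 scale, from a gap of -13.94 in the cells to -4.67 in the allografts. For H19 it was 3.84, from -8.68 to -4.84. For Igf2r it was -2.24, from 0.51 to -1.73, so that the order of the lines turned. The values of Hmga2 and H19 in the 57SCLC cells rest on 1 and 3 reads, so the sizes of these terms depend on the pseudocount.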

How the results depend on the processing

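Of 1143 values for single members under the alternatives, 1090 kept their direction and their side of the threshold, 17 fell below it, 16 rose above it and 20 turned sign. The calls of H19, Igf2bp1, Igf2bp2, Lin28a and Hmga2 between the lines held under each alternative run, in cells and in allografts. In the cells, H19, Igf2bp1, Lin28a and Hmga2 passed the filter through 1 line alone, as did Igf2bp1 and Lin28a in the allografts. These had to differ, so that their calls held is no separate support. With 1 sample left out, the filter asked for 2 samples instead of 3.

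The number of members higher in 57SCLC_allo than in 46LCNEC_allo was 1, and 2 with no filter, with all 15 samples in 1 fit and without tumor 312, 319, 321 or 316 (1 to 2 with a sample left out), since Lin28b was then tested. The number lower in 57SCLC_allo than in Lung was 2, and 1 with edgeR, DESeq2, library size and TMM scaling and without tumor 316 or CT5 (1 to 2 with a sample left out). From 46LCNEC cells to allografts the number higher was 1, and 2 with edgeR, DESeq2, all 15 samples, an adjusted p of at most 0.05 and without tumor 312 (1 to 2). The number lower was 2, and 1 with all 15 samples and without any 1 dish or tumor 321 (1 to 3, highest without tumor 319). The number of positive interaction terms was 2, and 1 with edgeR, a pseudocount of 5 and without dish A of 46LCNEC (1 to 3, highest without tumor 319 or 321). Beyond the filter, the cause was not tested.

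The values that turned sign were called in none of the settings where they turned. Igf2bp3 between the allografts was 0.062 with library size scaling and ranged from -0.73 to 0.59 with a sample left out (highest without tumor 319). In 46LCNEC_allo against Lung it was 0.53 with edgeR, 0.51 with DESeq2, 0.058 with TMM and -0.81 to 0.52 with a sample left out (above 0 without tumor 312, tumor 321 or CT4). In 46LCNEC_allo against the cells it was 0.13 with edgeR, 0.11 with DESeq2 and -1.16 to 0.17 with a sample left out (above 0 without tumor 312). H19 in 57SCLC_allo against Lung ranged from -0.11 to 0.47 with a sample left out (below 0 without CT4 or CT5). Among interaction terms, Igf2bp1 was -0.97 with a pseudocount of 0.1. The term of Lin28a was 0.020 with a pseudocount of 5 and -1.07 to 0.28 with a sample left out (above 0 without dish B or tumor 321), and that of Lin28b was 0.10 with edgeR, 0.16 with DESeq2 and 0.42 with a pseudocount of 0.1.

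With the letters A, B and C as a replicate block in the comparison of the lines as cells, 2 members were higher and 4 lower, as without it, and 7797 genes were called in place of 7799. Deviations of samples with the same letter correlated at 0.092, -0.084 and -0.006, so the letters were not taken as pairs. Library size scaling put the median of all genes between the lines at 0.23 in cells and 0.27 in allografts. Where a group had at most 3 reads, depth limits the size of a difference, which then depends on the pseudocount.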
